A study of Mus musculus with 24 samples.

Results

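Olfm4, Elf3, Lgals4, Cldn7, Epcam, Cdh1, Krt8, Krt19, Gpx2 and Pigr are 10 genes of epithelial identity, cell junctions and the intestinal crypt, followed here among the 55401 genes of 24 mouse RNA sequencing libraries. They were chosen by symbol, with earlier results of these data known, and all 10 were found. The libraries came from male C57BL/6 mice aged 11 weeks, in 6 groups of 4. Mice had received an empty vehicle or propyzamide, a herbicide that blocks microtubules of plants, and were either unstimulated or sampled 3 h or 24 h after anti-CD3, an antibody against the T cell receptor complex. By its title the series concerns mouse T cells and a model of inflammatory bowel disease. The sources used here do not give the tissue, a cell sort, doses or routes, and replicate numbers below only name libraries, without pairing them. Nothing states how many animals stand behind each library, so p-values measure only the spread between these samples.

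An epithelium is a sheet of cells held together by adherens and tight junctions and stiffened by keratin filaments. In the intestine the sheet folds into crypts, where stem cells divide, and daughters move up while switching to absorptive or secretory fates. These proteins are not part of the usual programme of T cells. In bulk libraries such as these, fewer epithelial cells and less RNA per epithelial cell cannot be told apart.

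Total estimated counts were 438519 to 2071732 in 23 libraries and 9812102 in the third propyzamide 24 h library, called the deepest below. Only 3.73% to 9.617% of the counts in the 23 libraries lay in named protein-coding genes (17810 to 160348 counts), against 29.92% in the deepest (2935829 counts). The deepest library stands apart from its group, so results at 24 h with propyzamide are given with and without it. The 10 genes had 2 to 240 counts each in the unstimulated libraries. Of the 40 values of the 10 genes in the 4 vehicle libraries at 24 h, 11 were 0, so single counts weigh heavily there. A gene with no counts in a library could still have had up to 3, which is 1.26 to 5.97 CPM (counts scaled to library depth) in the 23 libraries and 0.0785 in the deepest. Such floors cover counting error only. The library names hold 1 of 2 i5 index sequences, shared by both unstimulated groups and vehicle at 3 h on one side and by propyzamide at 3 h and both 24 h groups on the other. The labels do not call the index a batch, and for comparisons across it the index and the group cannot be told apart.

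All 10 genes were present before stimulation and made up a small share of named RNA, and that share was several times smaller at 24 h. Summed over the 10 genes, the share of counts in named protein-coding genes was 0.3876%, 0.3461%, 0.4553% and 0.3196% in the vehicle unstimulated libraries. With vehicle at 3 h it was 0.4769%, 0.2582%, 0.3683% and 0.1953%. With vehicle at 24 h it was 0.0556%, 0.03298%, 0.03433% and 0.05068%, below every library of the other vehicle groups. With propyzamide the unstimulated libraries had 0.454%, 0.3243%, 0.776% and 0.4351%. At 3 h they had 0.437%, 0.2137%, 0.1179% and 0.3101%. At 24 h they had 0.0775%, 0.0273% and 0.1377% in 3 libraries and 0.5678% in the deepest, which lay within the unstimulated range. The group means were 0.377% ± 0.0591 with vehicle and 0.497% ± 0.194 with propyzamide before stimulation (SD, n = 4). At 24 h they were 0.0434% ± 0.0114 (SD, n = 4) with vehicle and 0.203% ± 0.248 with propyzamide, or 0.0808% ± 0.0553 without the deepest (SD, n = 3).

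**Figure D1:**
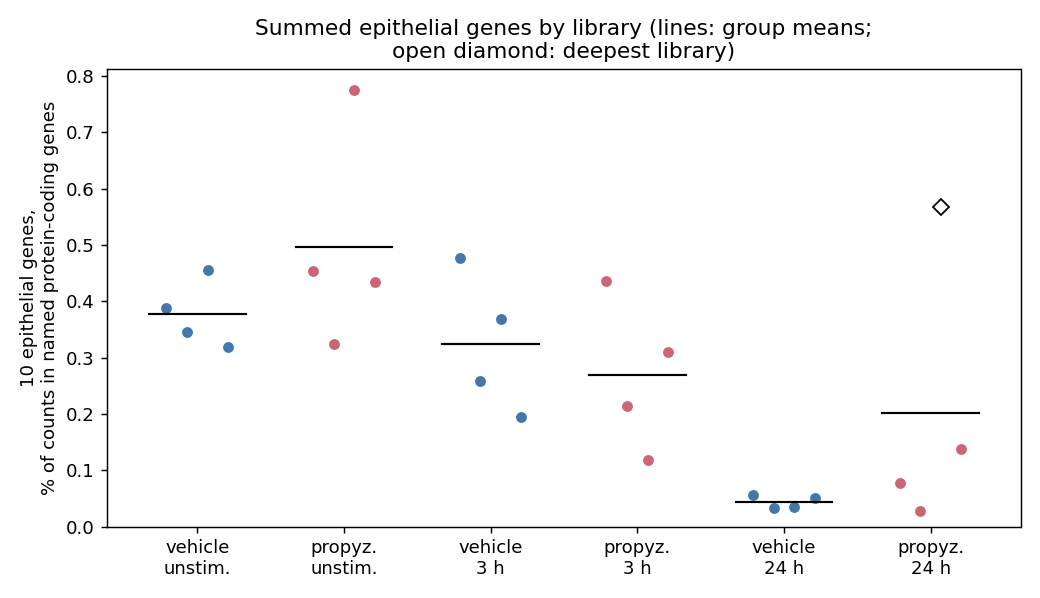
Counts of the 10 epithelial genes as a percentage of all counts in named protein-coding genes, by library, in the 6 groups (blue, vehicle; red, propyzamide; lines, group means; open diamond, the deepest library). The 4 vehicle 24 h libraries lie between 0.03298% and 0.0556%, and the deepest library at 0.5678% lies far above the 3 others of its group.

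Within the unstimulated vehicle group the genes differed in level per length (TPM, a deposited value scaled for transcript length and depth). Lgals4 was highest at 22.3 ± 7.70 TPM, followed by Olfm4 at 13.9 ± 5.49, Krt8 at 9.81 ± 1.71, Cldn7 at 7.61 ± 2.63 and Epcam at 6.96 ± 1.23 (SD, n = 4). Gpx2 followed at 5.78 ± 1.46 TPM, Krt19 at 5.33 ± 1.08, Elf3 at 4.28 ± 0.424, Pigr at 3.08 ± 1.27 and Cdh1 at 0.744 ± 0.270 (SD, n = 4). The libraries of neighbours in this order overlapped in range, apart from those of Pigr and Cdh1. Levels below are CPM scaled by TMM (trimmed mean of M values, an adjustment for library composition) and compare the same gene between libraries. The TMM factor was 3.896 in the deepest library and 0.6237 to 1.197 in the others, which lowers every CPM of the deepest.

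Log2 fold changes come from edgeR's quasi-likelihood fit over the 24 libraries. The standard error printed with each is the one implied by the fold change and its F statistic. It is an approximation and not a separate output of the fit, and the intervals below rest on it. A call means a Benjamini-Hochberg adjusted p no higher than 0.05 over the 3799 genes tested. Cdh1 was too low for the filter, so 9 of the 10 genes were tested. In vehicle mice the low values of Olfm4, Elf3 and Lgals4 at 24 h were known when the genes were chosen, so 24 h against unstimulated or against 3 h with vehicle is given as a description with no p. With vehicle all 10 genes were lower at 24 h than before stimulation in every library, without overlap of the groups, which 4.29% of all tested genes also showed in that direction. For Cdh1 the margin was small, with 4 counts (2.73 CPM) in 24 h replicate 1 against 5 counts (2.84 CPM) in unstimulated replicate 4. The median log2 fold change of the 9 tested genes was -3.09, against 0.11 over all named protein-coding genes. Between 3 h and 24 h the median was -2.59, and 7 of the 10 genes did not overlap (background 5.45%); Elf3, Cdh1 and Pigr did.

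With propyzamide, 24 h against unstimulated compared libraries other than those of the vehicle course, and its outcome turned on the deepest library. It was not independent of the choice of genes, which was made with earlier results of these data known. The filter, the scaling and the estimate of spread also came from the same fit as the vehicle libraries. With all 4 libraries, 9 of 9 tested genes had a negative log2 fold change, with a median of -0.83 against 0.27 over named protein-coding genes, and none was called (edgeR, 1 of 9 with an unadjusted p under 0.05; 0.079% of all genes were called). None of the 10 genes was free of overlap (background 2.16%). The median was -0.40 when the third propyzamide unstimulated library, the highest of its group for all 10 genes, was left out. Without the deepest library the median was -2.56, and Lgals4 and Cldn7 fell past the threshold, 2 of 9 tested against a background of 0.334% called lower. Olfm4, Elf3, Lgals4, Cldn7, Krt8 and Krt19 then did not overlap (6 of 10, background 4.39%). When, in addition, only named protein-coding genes were fitted, a setting added after the data were seen, edgeR called 7 of the 10 genes lower (Olfm4, Elf3, Lgals4, Cldn7, Epcam, Krt8 and Krt19) against a background of 1.36%. The 24 h and unstimulated libraries carry different i5 indices.

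**Figure D2:**
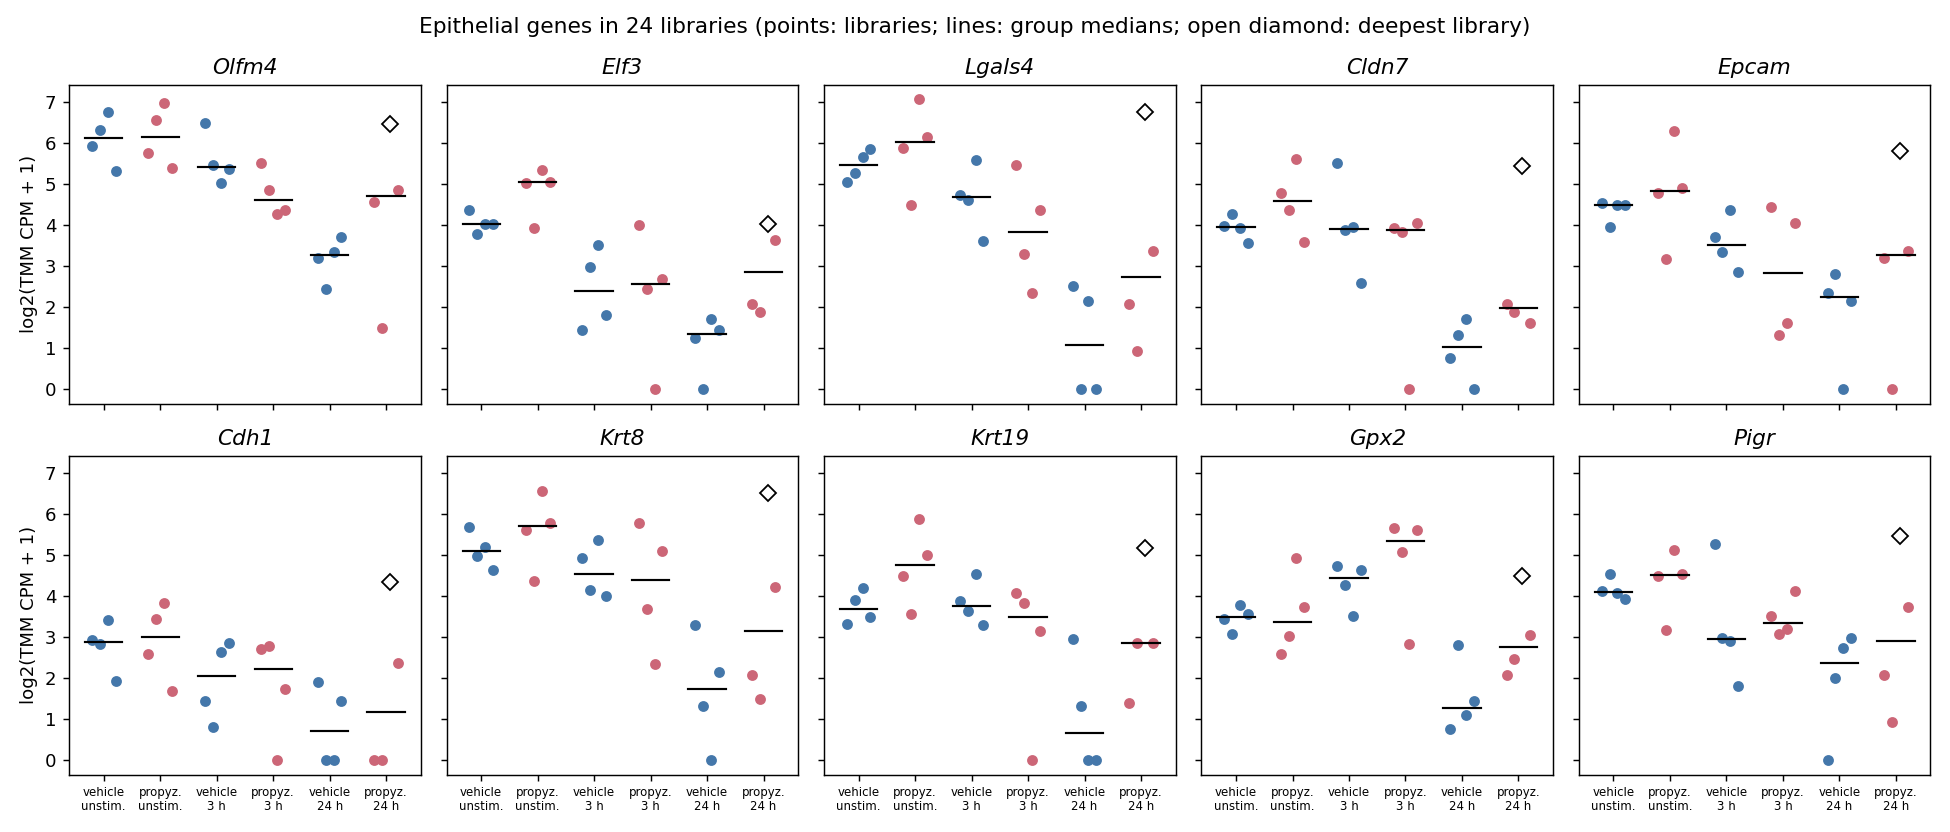
Level of each of the 10 genes in each library as log2(TMM CPM + 1) in the 6 groups (blue, vehicle; red, propyzamide; lines, group medians; open diamond, the deepest library). The vehicle 24 h points lie below all vehicle unstimulated points for every gene, and the deepest library lies above the 3 others of its group for every gene.

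Olfm4 encodes olfactomedin-4, a secreted glycoprotein abundant in stem cells of the crypt base. The gene (ENSMUSG00000022026.7) lies on GRCm38 chromosome 14, 79984081 to 80023139, plus strand. Olfm4 had 60.3, 78.9, 109 and 39.2 CPM in the vehicle unstimulated libraries, 89.9, 43.4, 31.5 and 40.4 at 3 h and 8.19, 4.48, 9.14 and 12.0 at 24 h. With propyzamide Olfm4 had 53.4, 93.6, 125 and 41.3 CPM before stimulation, 44.9, 28.2, 18.5 and 19.6 at 3 h and 22.8, 1.81, 87.3 and 28.0 at 24 h, where 87.3 is the deepest library. Only the deepest of the 24 h libraries reached the unstimulated levels. The log2 fold change of Olfm4 with vehicle at 24 h was -3.09 ± 0.64. With propyzamide it was -1.09 ± 0.55 (adjusted p = 0.361), and -2.18 ± 0.56 without the deepest (adjusted p = 0.0783). The gene was the most abundant of the 10 by counts over the 4 unstimulated vehicle libraries, with 29.67% of the counts of the 10 genes.

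Elf3 is an ETS-family transcription factor of epithelial cells. The gene (ENSMUSG00000003051.13) lies on chromosome 1, 135253575 to 135258568, minus strand. Elf3 had 19.8, 12.7, 15.4 and 15.3 CPM in the vehicle unstimulated libraries, 1.73, 6.85, 10.5 and 2.52 at 3 h and 1.37, 0, 2.28 and 1.72 at 24 h. The 3 h and unstimulated groups of Elf3 did not overlap, the only such case among the 10 genes in that comparison (background 3.79%). Its log2 fold change at 3 h with vehicle was -1.48 ± 0.63 and did not pass (adjusted p = 0.655). With propyzamide Elf3 had 31.7, 14.4, 40.1 and 32.4 CPM unstimulated, 15.2, 4.45, 0 and 5.49 at 3 h and 3.26, 2.71, 15.4 and 11.4 at 24 h. The change at 3 h was -2.07 ± 0.60 (adjusted p = 0.104), the smallest p of the 9 genes in that comparison. At 24 h Elf3 differed least between fits, at -1.70 ± 0.57 with the deepest library (adjusted p = 0.221) and -2.26 ± 0.65 without it (adjusted p = 0.128).

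Lgals4 encodes galectin-4, a sugar-binding lectin of the gut epithelium. The gene (ENSMUSG00000053964.17) lies on chromosome 7, 28833854 to 28841708, plus strand. Lgals4 had 32.2, 38.1, 50.2 and 57.3 CPM in the vehicle unstimulated libraries, 25.9, 23.6, 47.3 and 11.4 at 3 h and 4.78, 0, 3.43 and 0 at 24 h. With propyzamide Lgals4 had 58.4, 21.6, 134 and 70.4 CPM unstimulated, 43.3, 8.90, 4.12 and 19.6 at 3 h and 3.26, 0.903, 109 and 9.34 at 24 h. The deepest library at 109 CPM stood far above the next of its group and within the range of the propyzamide unstimulated libraries. Lgals4 had the lowest fitted value of the 9 genes with vehicle at 24 h, a log2 fold change of -4.09 ± 1.01. With propyzamide at 24 h it was -1.07 ± 0.75 (adjusted p = 0.532) with all libraries, and without the deepest it fell by 3.92 ± 0.77 on the log2 scale (adjusted p = 0.0182).

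Cldn7 encodes claudin-7, a junction protein of epithelial cells, and Epcam encodes a surface adhesion molecule that binds and stabilises claudin-7. Cldn7 (ENSMUSG00000018569.12) lies on chromosome 11, 69964779 to 69967885, plus strand. Cldn7 had 14.9, 18.4, 14.3 and 10.8 CPM in the vehicle unstimulated libraries, 45.0, 13.7, 14.5 and 5.05 at 3 h and 0.683, 1.49, 2.28 and 0 at 24 h. With propyzamide Cldn7 had 26.7, 19.8, 47.9 and 11.2 CPM unstimulated, 14.4, 13.4, 0 and 15.7 at 3 h and 3.26, 2.71, 42.6 and 2.08 at 24 h. Apart from the deepest library, the propyzamide 24 h values of Cldn7 lay close together and below every unstimulated value. Its log2 fold change with propyzamide at 24 h was -0.83 ± 0.69 (adjusted p = 0.614), and without the deepest it fell by 3.26 ± 0.76 (adjusted p = 0.0399).

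Epcam (ENSMUSG00000045394.9) lies on chromosome 17, 87635979 to 87651129, plus strand. Epcam had 22.3, 14.5, 21.5 and 21.6 CPM in the vehicle unstimulated libraries, 12.1, 9.13, 19.7 and 6.31 at 3 h and 4.10, 5.97, 0 and 3.44 at 24 h. With propyzamide Epcam had 26.7, 8.10, 78.0 and 29.0 CPM unstimulated, 20.8, 1.48, 2.06 and 15.7 at 3 h and 8.14, 0, 55.8 and 9.34 at 24 h. Epcam overlapped between these groups with and without the deepest library. Its log2 fold change with propyzamide at 24 h was -0.81 ± 0.73 with all libraries (adjusted p = 0.645) and -2.66 ± 0.82 without the deepest (adjusted p = 0.151).

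Cdh1 encodes E-cadherin, the calcium-dependent adhesion protein of the adherens junction. The gene (ENSMUSG00000000303.12) lies on chromosome 8, 106603351 to 106670246, plus strand. Cdh1 had 8, 14, 19 and 5 counts in the vehicle unstimulated libraries, 1, 1, 4 and 5 at 3 h and 4, 0, 0 and 1 at 24 h. With propyzamide it had 3, 11, 24 and 2 counts unstimulated, 7, 4, 0 and 3 at 3 h and 0, 0, 626 and 4 at 24 h. Of the 746 counts of Cdh1 in all libraries, 120 lay outside the deepest, so its course could not be tested at this depth.

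Krt8 and Krt19 encode keratins, subunits of the intermediate filaments of simple epithelia. Krt8 (ENSMUSG00000049382.10) lies on chromosome 15, 101996698 to 102004482, minus strand. Krt8 had 50.4, 30.7, 35.9 and 23.8 CPM in the vehicle unstimulated libraries, 29.4, 16.7, 40.7 and 15.1 at 3 h and 8.87, 1.49, 0 and 3.44 at 24 h. With propyzamide Krt8 had 48.4, 19.8, 94.8 and 54.7 CPM unstimulated, 54.5, 11.9, 4.12 and 33.8 at 3 h and 3.26, 1.81, 91.6 and 17.6 at 24 h. Its 3 libraries other than the deepest were below every unstimulated one, by a small margin for 17.6 against 19.8 CPM. The log2 fold change with propyzamide at 24 h was -0.80 ± 0.71 (adjusted p = 0.645), and -2.76 ± 0.75 without the deepest (adjusted p = 0.0966).

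Krt19 (ENSMUSG00000020911.14) lies on chromosome 11, 100140810 to 100148665, minus strand. With vehicle Krt19 ranged over 9.08 to 17.4 CPM unstimulated, 8.83 to 22.3 at 3 h and 0 to 6.83 at 24 h. With propyzamide it had 21.7, 10.8, 58.0 and 31.3 CPM unstimulated and 1.63, 6.32, 35.0 and 6.23 at 24 h. The Krt19 log2 fold change with propyzamide at 24 h was -1.11 ± 0.66 (adjusted p = 0.454), and -2.56 ± 0.74 without the deepest (adjusted p = 0.130). Pigr, the polymeric immunoglobulin receptor that carries IgA across the epithelium (ENSMUSG00000026417.13, chromosome 1, 130826684 to 130852249, plus strand), ranged over 14.2 to 22.4 CPM unstimulated, 2.52 to 38.1 at 3 h and 0 to 6.88 at 24 h with vehicle. With propyzamide Pigr had 21.7, 8.10, 34.0 and 22.3 CPM unstimulated and 3.26, 0.903, 43.4 and 12.5 at 24 h. Pigr had the value nearest 0 there, -0.35 ± 0.70 (adjusted p = 0.855), and -1.89 ± 0.79 without the deepest (adjusted p = 0.355).

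**Figure D3:**
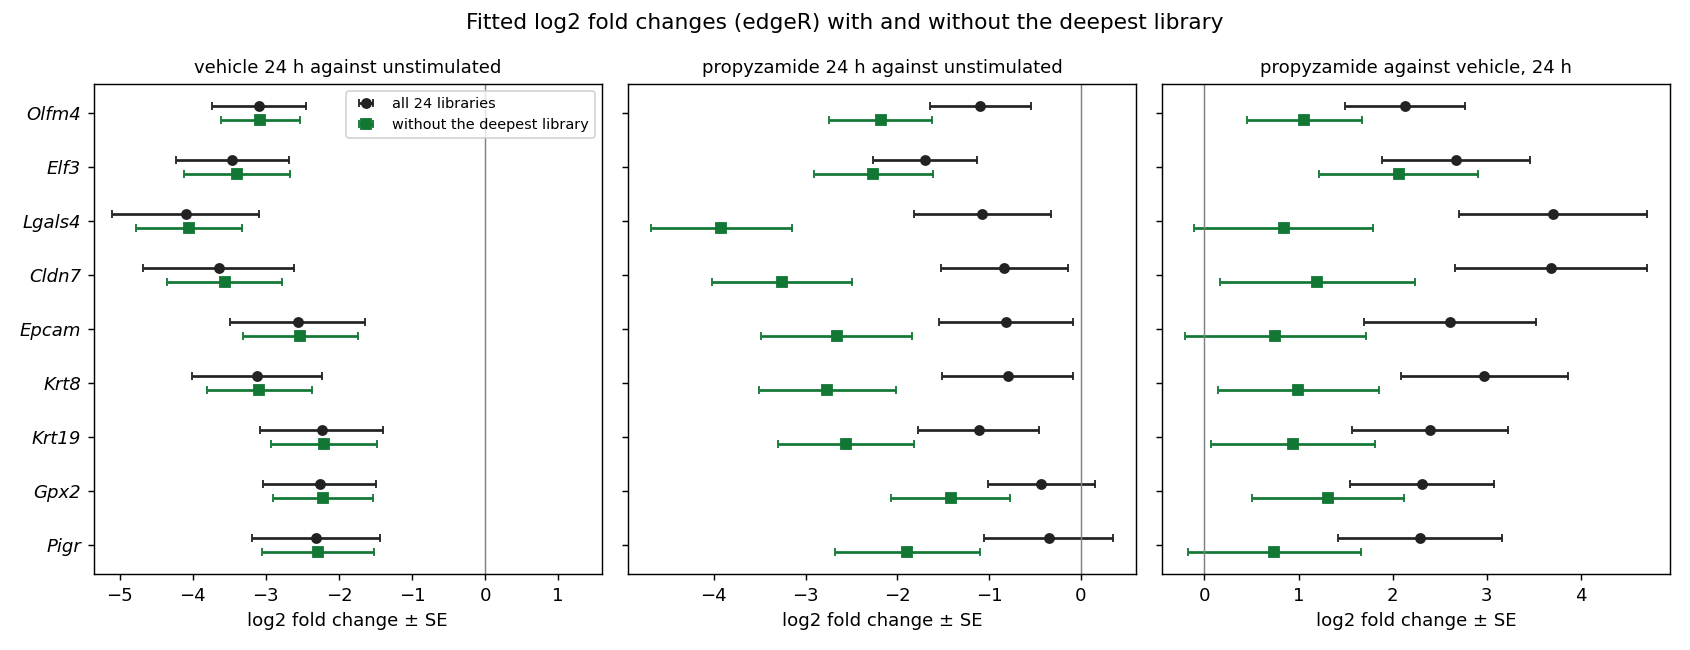
Fitted log2 fold change ± SE of the 9 tested genes in 3 comparisons, with all 24 libraries (black circles) and without the deepest (green squares); the left and right panels are descriptions only. Leaving out the deepest library hardly moves the vehicle values, takes the median with propyzamide at 24 h from -0.83 to -2.56 and the median of propyzamide against vehicle from 2.61 to 1.0.

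At 3 h no gene of the 10 was called in either treatment, and Gpx2 had the opposite sign to most. With vehicle at 3 h, 6 of 9 tested genes had negative log2 fold changes, with a median of -0.47 against -0.17 over named protein-coding genes (edgeR, 0 called, 1 with an unadjusted p under 0.05; 0.29% of all genes called). These groups share an index. With propyzamide at 3 h, 8 of 9 were negative, with a median of -1.49 against -0.43 (0 called, 6 with an unadjusted p under 0.05; background 0.711%), across different indices. That median was -0.88 without the third propyzamide unstimulated library. DESeq2 called 1 of 9 there, Elf3 at -2.28 (adjusted p = 0.0278; 1.84% of genes called lower). The smallest library of the series is propyzamide 3 h replicate 3, where 4 of the 10 genes had no counts.

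Gpx2 encodes the gastrointestinal glutathione peroxidase, an enzyme of the crypt that reduces hydroperoxides. The gene (ENSMUSG00000042808.8) lies on chromosome 12, 76792333 to 76795554, minus strand. Gpx2 had 9.91, 7.45, 12.8 and 10.8 CPM in the vehicle unstimulated libraries, 25.9, 18.3, 10.5 and 24.0 at 3 h and 0.683, 5.97, 1.14 and 1.72 at 24 h. With propyzamide Gpx2 had 5.01, 7.20, 29.5 and 12.3 CPM unstimulated, 49.7, 32.6, 6.17 and 47.9 at 3 h and 3.26, 4.52, 21.6 and 7.27 at 24 h. In both treatments 3 of 4 libraries at 3 h were above every unstimulated one, and 1 was within their range. The log2 fold change of Gpx2 at 3 h was 0.93 ± 0.59 with vehicle (adjusted p = 0.998) and 1.29 ± 0.58 with propyzamide (adjusted p = 0.341), or 2.10 without the third propyzamide unstimulated library. From 3 h to 24 h with propyzamide, groups that share an index, Gpx2 fell by 1.73 ± 0.58 on the log2 scale (adjusted p = 0.0429) and by 2.68 ± 0.65 without the deepest library (adjusted p = 0.0201). It was the only one of the 9 genes called there, where 6.63% of all genes were called lower with all libraries and 2.11% without the deepest, and the call was lost when replicate 1, 2 or 4 of either propyzamide group, 3 h or 24 h, was left out, and with RLE normalization, no filter, DESeq2 or limma-trend. The median of the 9 genes in that comparison was 0.39 with the deepest and -0.95 without it, against 0.73 over named protein-coding genes in the fit with all libraries. Nearly all Gpx2 counts, 92.46% in the 23 libraries and 97.24% in the deepest, were assigned to a transcript that the GENCODE annotation classes as processed and not as protein-coding, and 3.86% and 2.133% to a protein-coding one. The other 9 genes had most of their counts in 1 protein-coding transcript, from 58.03% for Elf3 to 100% for Krt8 outside the deepest library.

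As a share of the counts of the 10 genes, which does not depend on library scaling, Gpx2 held 4.10%, 3.06%, 4.24% and 5.23% in the vehicle unstimulated libraries and 9.15%, 12.1%, 5.03% and 19.6% at 3 h. With propyzamide it held 1.68%, 3.38%, 4.51% and 4.0% unstimulated and 18.1%, 25.6%, 14.3% and 26.0% at 3 h. The means were 4.16% ± 0.889 and 11.5% ± 6.14 with vehicle (SD, n = 4, exact two-sided permutation p = 0.0571, adjusted p = 0.285). They were 3.39% ± 1.23 and 21% ± 5.75 with propyzamide (SD, n = 4, exact two-sided permutation p = 0.0286, adjusted p = 0.191), without overlap. The 14.3% is 3 of 21 counts in propyzamide 3 h replicate 3, and the 1.68% is 3 of 179 in unstimulated replicate 1. Elf3 had a smaller share at 3 h, 3.06% against 6.49% with vehicle and 3.00% against 8.51% with propyzamide (exact two-sided permutation p = 0.0286 and adjusted p = 0.191 in each). These 20 tests were chosen after the counts were seen, 0.0286 is the smallest p that 4 against 4 libraries allow, and none passed adjustment. The deepest library held 4.15% Gpx2 and 2.95% Elf3.

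**Figure D4:**
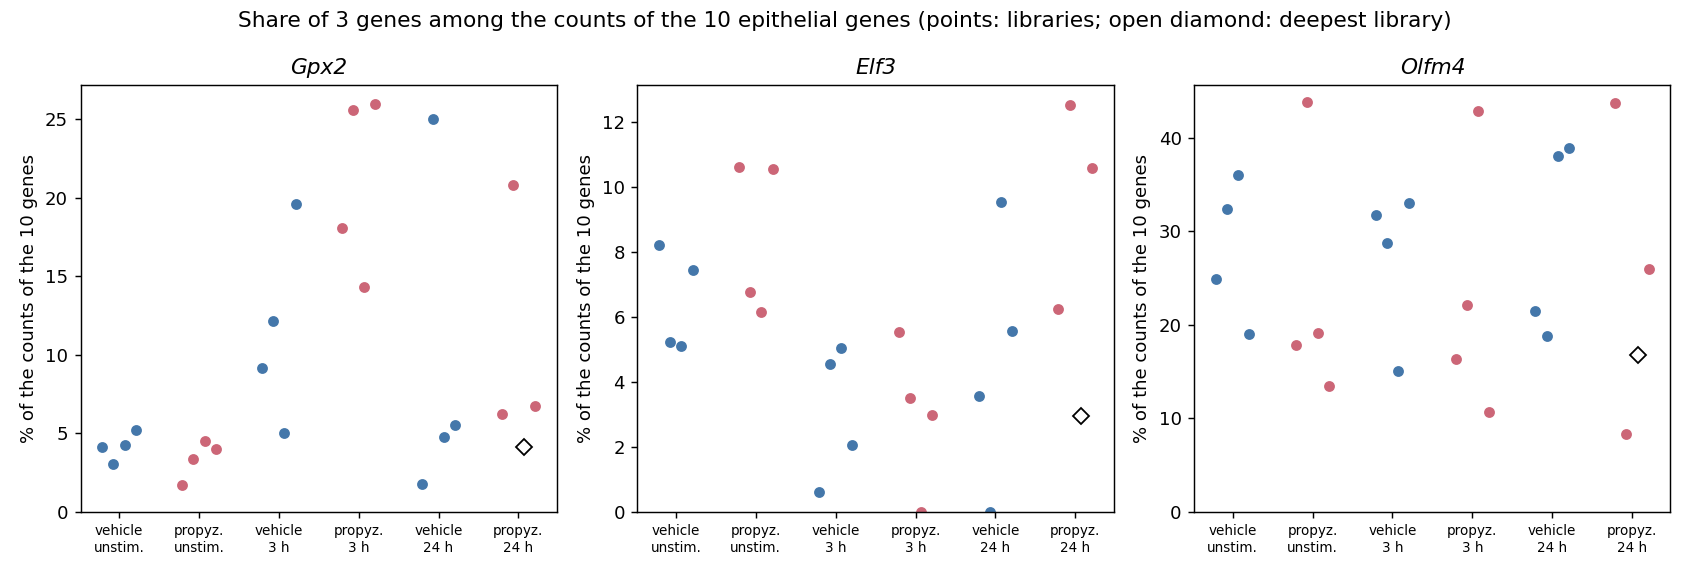
Percentage of the counts of the 10 genes that lay in Gpx2, Elf3 and Olfm4, by library in the 6 groups (blue, vehicle; red, propyzamide; open diamond, the deepest library). The 4 propyzamide 3 h libraries have 14.3% to 26.0% Gpx2 against 1.68% to 4.51% in the propyzamide unstimulated libraries. The 14.3% is 3 of 21 counts, and the 24 h points rest on 16 to 104 counts outside the deepest.

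Before stimulation and at 3 h, none of the 9 tested genes passed the threshold between propyzamide and vehicle (edgeR, 0% of all genes called at each). Before stimulation, with a shared index, 9 of 9 tested genes had positive values with a median of 0.68, against 0.16 over named protein-coding genes, and 0 had an unadjusted p under 0.05. That median fell to 0.14 when the third propyzamide unstimulated library was left out. Krt19 was at 30.4 ± 20.2 CPM with propyzamide and 12.7 ± 3.80 with vehicle (SD, n = 4), a log2 difference of 1.27 ± 0.67 (edgeR 95% interval -0.10 to 2.65), or 0.70 without the same library. Olfm4 differed by 0.14 ± 0.54 (interval -0.97 to 1.25). At 3 h, across indices, the median was -0.20, from -0.60 to 0.17 when single libraries were left out, and 0 had an unadjusted p under 0.05. Olfm4 differed by -0.85 ± 0.58 there (interval -2.03 to 0.34), or by -0.45 without the first vehicle 3 h library, and Gpx2 by 0.84 ± 0.58 (interval -0.34 to 2.02). At 24 h the reference is the vehicle 24 h group, whose low values were known when the genes were chosen, so this comparison too is a description with no p. With a shared index, 9 of 9 log2 differences were positive with a median of 2.61, against 0.32 over named protein-coding genes. Without the deepest library that median was 1.0. Elf3 alone was free of overlap at 24 h, with and without the deepest (background 2.47% higher with all libraries, not given without the deepest), at 2.71 to 15.4 CPM with propyzamide and 0 to 2.28 with vehicle. The nearest libraries had 3 counts (propyzamide replicate 2) and 2 counts (vehicle replicate 3, whose floor is 3.32 CPM). The lack of overlap thus rests on very few counts. The Elf3 log2 difference was 2.67 ± 0.79, and 2.07 ± 0.85 without the deepest. Lgals4 differed by 3.71 ± 1.0, and by 0.84 ± 0.95 without the deepest.

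The difference between treatments in the response to anti-CD3 was tested as an interaction at 3 h, and 0 of 9 genes were called (edgeR, 0 with an unadjusted p under 0.05; 0% of all genes called). At 3 h Krt19 had an interaction of -1.77 ± 1.0 (95% interval -3.82 to 0.28) and Gpx2 one of 0.36 ± 0.83 (interval -1.33 to 2.05), or 1.17 without the third propyzamide unstimulated library. The 24 h interaction contains the vehicle 24 h libraries and is given with no p. It was 3.02 ± 1.26 for Lgals4 with all libraries and 0.13 ± 0.95 without the deepest. Krt19 had 1.12 ± 1.07 and -0.35 ± 1.13, and 3.47 without the first vehicle 24 h library.

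The genes went up and down together across libraries. Over the 36 pairs of the 9 tested genes, Pearson's r of log2 CPM across the 24 libraries had a median of 0.72, from 0.369 (Gpx2 with Elf3) to 0.903, and without the deepest a median of 0.708. Gpx2 was least like the others, with a median r of 0.563. These libraries share group differences and library composition, so the values are a description. Among 2450 other named protein-coding genes tested, the 8 most like the mean of the members were Muc13 (r = 0.947), a transmembrane mucin, Hbegf (0.928) and Areg (0.88), ligands of the EGF receptor, Lgals2 (0.887), a galectin, Krt18 (0.886), the keratin partner of Krt8, Ckmt1 (0.885), a mitochondrial creatine kinase, St3gal4 (0.874), a sialyltransferase, and Fabp2 (0.857), a fatty acid binding protein of enterocytes. Over the 23 libraries their r was 0.942, 0.924, 0.87, 0.882, 0.886, 0.877, 0.863 and 0.842 in the same order.

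Because the genes moved together, the DNA just before their starts is shown for 5 of them, from the RefSeq promoter table of GRCm38.p6, in which 8 of the 10 were matched (not Cdh1 and Krt19). The letters run 5′ to 3′ on the gene's strand and end at the RefSeq start or where an exon of the GENCODE annotation begins. Capitals mark CAGGTG or its reverse complement, the E-box letters that repressors of the Snail and Zeb families can bind. Olfm4 (chr14:80000052-80000250, plus strand) and Gpx2 (chr12:76795555-76795804, minus strand) have none, Elf3 (chr1:135258569-135258722, minus strand) and Lgals4 (chr7:28833544-28833793, plus strand) have 1 each, and Epcam (chr17:87635729-87635978, plus strand) has 2.
Olfm4: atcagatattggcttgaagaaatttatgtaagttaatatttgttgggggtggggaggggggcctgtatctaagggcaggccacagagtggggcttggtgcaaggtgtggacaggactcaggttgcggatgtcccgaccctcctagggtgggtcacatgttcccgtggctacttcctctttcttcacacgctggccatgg
Elf3: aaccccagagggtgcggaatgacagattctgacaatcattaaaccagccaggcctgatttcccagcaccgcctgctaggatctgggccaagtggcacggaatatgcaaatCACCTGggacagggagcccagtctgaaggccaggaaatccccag
Lgals4: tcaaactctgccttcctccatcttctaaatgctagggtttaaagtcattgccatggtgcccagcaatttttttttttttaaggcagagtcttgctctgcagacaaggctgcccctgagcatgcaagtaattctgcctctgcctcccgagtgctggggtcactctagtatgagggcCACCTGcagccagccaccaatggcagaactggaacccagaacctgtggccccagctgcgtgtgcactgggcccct
Epcam: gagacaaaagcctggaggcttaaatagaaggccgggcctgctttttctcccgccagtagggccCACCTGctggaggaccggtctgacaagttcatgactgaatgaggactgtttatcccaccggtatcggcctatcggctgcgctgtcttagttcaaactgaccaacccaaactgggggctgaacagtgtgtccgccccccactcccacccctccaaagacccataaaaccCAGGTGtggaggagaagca
Gpx2: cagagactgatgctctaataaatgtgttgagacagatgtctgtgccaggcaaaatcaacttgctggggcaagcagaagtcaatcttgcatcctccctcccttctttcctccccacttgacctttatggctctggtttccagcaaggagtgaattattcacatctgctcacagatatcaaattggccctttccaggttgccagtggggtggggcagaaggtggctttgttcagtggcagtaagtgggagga

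In the 250 bases before the start, CAGGTG on either strand was found in 6 of the 8 matched genes (Elf3, Lgals4, Cldn7, Epcam, Krt8 and Pigr) and in 17.2% of the 32851 windows of the table. TATAA was in 1 of 8 (Olfm4, outside the letters shown) and in 22.8% of windows, the ETS core GGAAG in 5 of 8 and 64.1%, and CAAAG, letters of HNF4 motifs, in 3 of 8 and 48.6%. None of the 4 motifs contains another, all were searched on both strands, and they were chosen after the data were seen. A match describes letters and is not evidence of binding.

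Other genes of the same processes were read from lists by function, and most were too low to test. Of 18 further crypt and stem cell genes 2 were tested, of 19 epithelial transcription factors 1, of 31 junction genes 8, of 14 keratin and brush border genes 3, of 7 galectins and partners 4 and of 19 glutathione and antioxidant genes 10. In propyzamide 24 h against unstimulated none of these 28 was called, with 3 galectin genes at an unadjusted p under 0.05 (edgeR; background 0.079%). Values are log2 fold changes with all libraries, followed by those without the deepest where the 2 differ by over 1.5 times. The crypt genes were the surface receptor Cd44 at -0.02 ± 0.56 (-0.68 ± 0.60) and Igfbp4 at -0.36 ± 0.49, and the tested transcription factor was Ehf, a relative of Elf3, at -0.62 ± 0.52. Among junction genes the smallest p belonged to the claudins Cldn4 at -1.42 ± 0.75 (-2.94 ± 0.98) and Cldn3 at -1.32 ± 0.76, and to the protease St14 at 0.38 ± 0.37. For Cldn3 only the value with all libraries is printed, which does not mean that the fits agreed. Its call and counts without the deepest are given below. Among keratin and brush border genes Krt18 was at -1.01 ± 0.56 (-1.57 ± 0.62), the membrane linker Ezr at 0.89 ± 0.54 and Krt7 at -0.47 ± 0.69 (-0.78 ± 0.80). In the galectin list 2 of 4 were positive, led by Lgals3bp at 1.53 ± 0.61 (1.02 ± 0.65) and Lgals9 at 1.2 ± 0.51 (0.34 ± 0.48), and Lgals2 was at -1.41 ± 0.60 (-3.44 ± 0.68). Without the deepest library only Lgals2 of the 4 had an unadjusted p under 0.05. In the antioxidant list Gstm3 was at -1.55 ± 1.03 (-4.46 ± 1.6), Gstm1 at -1.22 ± 1.13 (-2.92 ± 1.63) and Prdx1 at -0.56 ± 0.52 (-1.05 ± 0.55), and 9 of 10 were negative in both fits. Gstm3 had 2, 5, 112 and 2 counts in the propyzamide unstimulated libraries and 1, 0 and 1 in the 3 at 24 h, so its value rests on the third unstimulated library. Without the deepest library Cldn3 and Lgals2 fell past the threshold (adjusted p = 0.0182 each), as Lgals4 and Cldn7 did. Cldn3 had 18, 12, 56 and 13 counts in the propyzamide unstimulated libraries and 0, 0 and 1 in the 3 at 24 h, and Lgals2 had 13, 12, 53 and 25 against 2, 1 and 2. From 3 h to 24 h with propyzamide the antioxidant enzymes Sod1, at 1.49 ± 0.43 (adjusted p = 0.0270), and Prdx6, at 1.43 ± 0.48 (adjusted p = 0.0436), were the only 2 of the 28 called in that comparison with all libraries (background 8.61% higher), and are named after their values were seen. Both calls were lost without the deepest library, at 1.21 ± 0.43 for Sod1 (adjusted p = 0.0724) and 1.19 ± 0.50 for Prdx6 (adjusted p = 0.124).

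Lists of other cell types were followed as summed CPM, here relative to the counts in named protein-coding genes. The enterocyte list of 11 genes, led by Fabp1, ran from 1221 to 2131 in the vehicle unstimulated libraries, 560.7 to 2849 at 3 h and 84.47 to 247.4 at 24 h, where Apoa4 and Lct had no counts. With propyzamide it was 738.9 to 7832 unstimulated, 119.2 to 218 at 24 h without the deepest, where Apoa4, Alpi and Anpep had no counts, and 5192 in the deepest, where all 11 had counts. The goblet cell list of 7 genes, led by Muc2, was 860.6 to 1138 unstimulated and 144.3 to 367.4 at 24 h with vehicle, and 324.3 in the deepest library, within the 24 h range. The Paneth cell list of 8 genes, led by Lyz1, was 24640 to 39210 unstimulated, 9818 to 14410 at 3 h and 10280 to 17500 at 24 h with vehicle. In the deepest library the Paneth list was 4088, lower than in any other library, while the 10 epithelial genes were as high as before stimulation. With propyzamide the goblet list was 711.6 to 2232 unstimulated and 238.8 to 344.3 at 24 h without the deepest. The Paneth list was 18530 to 53030 and 10190 to 22450 in the same order. The enteroendocrine and tuft cell list of 4 genes was 72.64 to 150.5 and 0 to 34.12, and 68.81 in the deepest. Chga, its first marker, had 2 counts at 24 h without the deepest. The epithelial lists thus did not share 1 course: the enterocyte list followed the 10 genes in the deepest library, and the goblet and Paneth lists did not.

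The T cell list of 13 genes ran from 352.2 to 642.4 in the vehicle unstimulated libraries, 704.9 to 1098 at 24 h with vehicle and 968.8 to 1661 at 24 h with propyzamide, the deepest having 1218. Cd3e, its first marker, had 6 counts over the 4 vehicle unstimulated libraries and 16 over the 4 at 24 h. The B cell list of 7 genes was 1005 to 2819 and 1867 to 3381 in the same vehicle groups. All 13 T cell genes and all 7 B cell genes had counts in both groups. The plasma cell list of 7 genes, led by Jchain, was lower at 24 h with vehicle, as the 10 epithelial genes were. It was 8620 to 15040 in the vehicle unstimulated libraries, 3197 to 6968 at 3 h and 2900 to 3351 at 24 h, where Tnfrsf17 had no counts. At 3 h this list already lay below its unstimulated range, whereas the share of the 10 genes overlapped its own. With propyzamide the plasma cell list was 9747 to 16180 unstimulated and 9585 in the deepest library, against 3082 to 10490 in the 3 others at 24 h. The highest of those 3 lay within the unstimulated range, unlike the share of the 10 genes. The part of such changes in cell composition in the lower share of the 10 genes was not tested. Between the vehicle unstimulated and 24 h libraries, the other lists overlapped in range: macrophage and monocyte (943.1 to 1495 and 647.6 to 1360), neutrophil (112.3 to 304.3 and 114.4 to 563.1), enteroendocrine and tuft cell (96.86 to 162.3 and 49.04 to 148.9), fibroblast (180.9 to 281.8 and 56.31 to 536.2) and endothelium (149.7 to 367.9 and 226.8 to 546.1). The smooth muscle list met at its bounds, with 30.92 to 114.5 and 114.4 to 268.0.

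**Figure D5:**
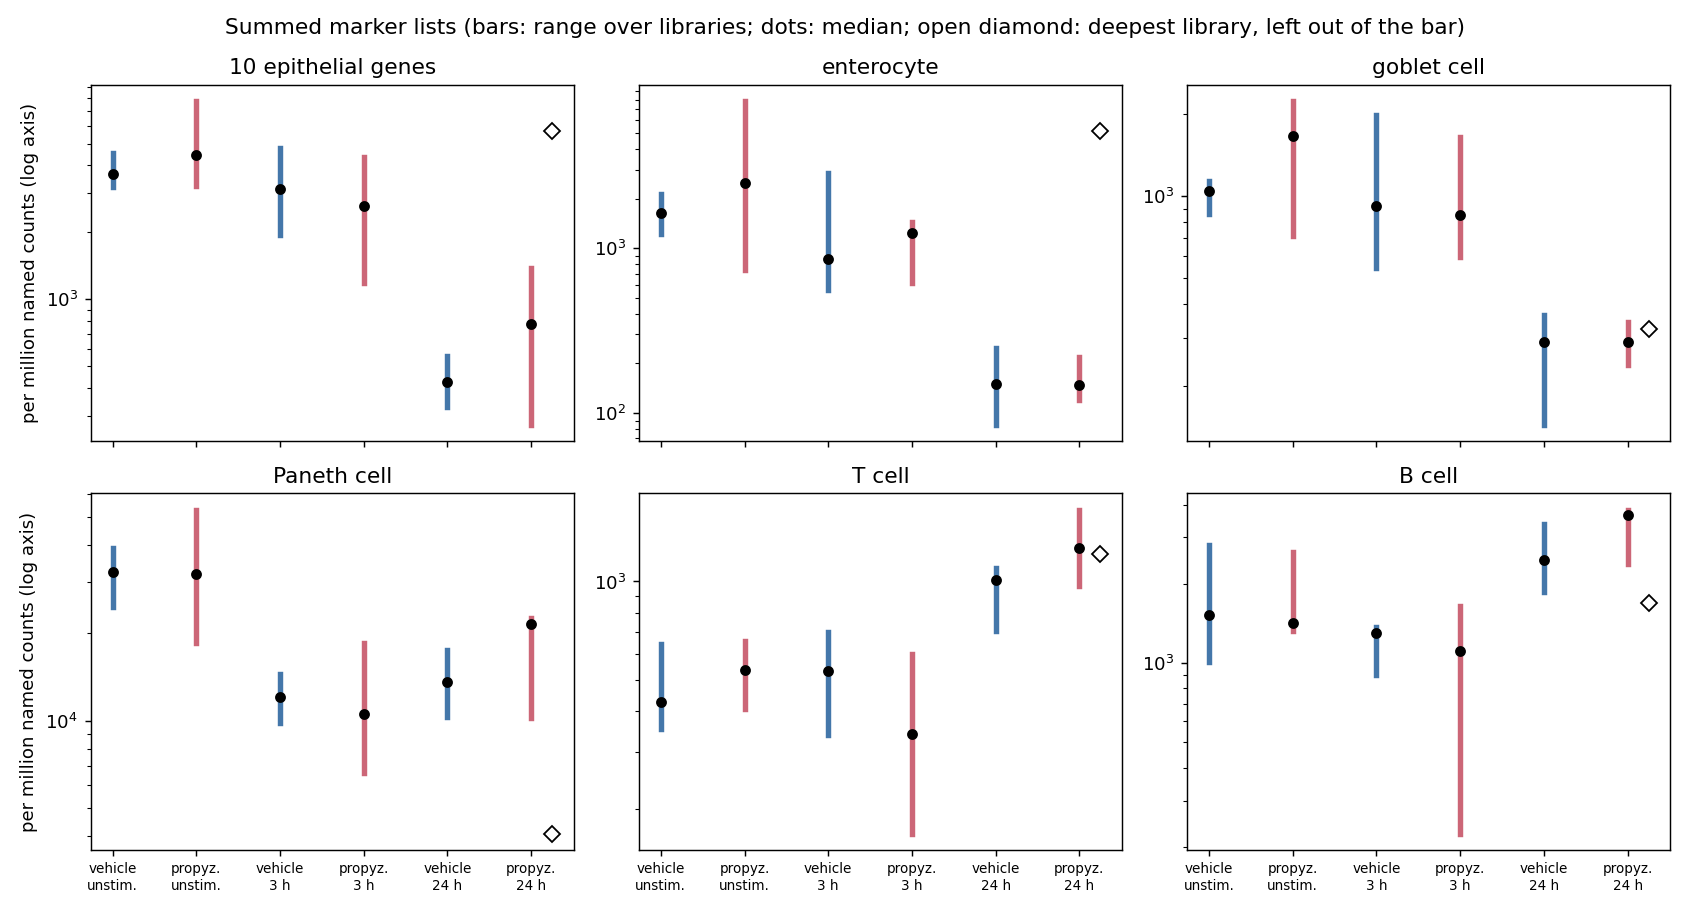
Summed CPM relative to the counts in named protein-coding genes, on a log axis, of the 10 epithelial genes and 5 marker lists in the 6 groups (bars, lowest to highest library; dots, medians; blue, vehicle; red, propyzamide; open diamond, the deepest library, left out of the bar). The enterocyte list is at 5192 in the deepest library against 119.2 to 218 in the 3 others of its group, and the Paneth list at 4088 is its lowest value.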

How the data were processed

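RNA of 24 libraries was prepared by the SMART-seq2 protocol, per the labels, and quantified with kallisto on GRCm38, per the submitters' processing notes, which give no version here. The deposited files give expected counts per transcript, not scaled to depth, and TPM, per the file headers. SMART-seq2 reads do not mark strand, and reads shared by near-identical copies, such as keratin pseudogenes, may have been split by the authors' estimate.

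Expected counts were summed by gene identifier to 55401 genes, with symbols from the same field of the files, and rounded to whole numbers. The 18387 named protein-coding genes exclude models that carry only a number or clone name, olfactory and vomeronasal receptors and mitochondrially encoded genes, which was settled with the data in view. Types and coordinates are from GENCODE on GRCm38. Counts were fitted with edgeR 4.0.16 (R 4.3.3): 1 coefficient per group over 24 libraries, filterByExpr, TMM, quasi-likelihood F test, Benjamini-Hochberg adjustment over the 3799 genes tested. Contrasts that use the vehicle 24 h libraries, propyzamide against vehicle and the interaction at 24 h included, were first planned as tests and are described with no p, since the genes were chosen with those values known. Calls need an adjusted p of at most 0.05. Without the deepest library 3893 genes were tested. Standard errors of the edgeR log2 fold changes are those implied by the F statistic, and the intervals, at 95%, are built from them. Library depths were 438519 to 2071732 counts in 23 libraries and 9812102 in 1. No 2 replicates were identical (36 pairs).

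The members, lists, tests and alternatives were chosen with earlier results of these data known. Names given are the 10 members, from each pathway list up to 3 genes with the smallest p in propyzamide 24 h against unstimulated, the 8 genes most correlated with the members, and the first marker of each cell type list. The tests on shares of counts (exact permutation, scipy 1.17.1), the motifs and the promoters shown were chosen after the data were seen. Alternatives were RLE normalization, no filter, named protein-coding genes only, DESeq2 1.42.0, limma-voom with quality weights and limma-trend on log2(TPM + 1) (limma 3.58.1), and leaving out the deepest or each library. The combination of named genes only without the deepest library was added after the data were seen. The fit was tested on simulated data.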

Additional observations from a re-analysis of the deposited data

Results flagged for a closer look

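Of the 60 sets of 4 libraries formed by 10 genes and 6 groups, 7 had a library whose gap to its nearest neighbour took more of the range of the 4 than the 95% critical value of Dixon's test. Chance gives about 1 in 20 such sets, and the sets share libraries. The deepest library, propyzamide 24 h replicate 3, accounts for 4 of the 7: Lgals4 at 108.6 CPM, Cldn7 at 42.64, Epcam at 55.76 and Krt19 at 34.98, where the next highest libraries had 9.341, 3.256, 9.341 and 6.322 CPM.

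Cldn7 had 0 CPM in propyzamide 3 h replicate 3, the library with the fewest counts, against 13.35 in the next lowest. Epcam had 14.46 CPM in vehicle unstimulated replicate 2, below a nearest neighbour at 21.52. Pigr had 38.05 CPM in vehicle 3 h replicate 1, against 6.846 in the next highest. The vehicle 3 h range of Pigr rests on that library.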

How the results depend on the processing

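No paired analysis was possible because the labels give replicates no number. Over the 84 results and their alternatives, 2590 values were labelled unchanged, 22 reversed, 45 moved, 21 as gaining and 10 as losing a call. In all contrasts but vehicle 24 h against unstimulated or 3 h, a gene's value counted as unchanged if its sign and call status held. The size of the shift played no part there. Pigr in vehicle 3 h against unstimulated went from -0.449 to -1.65 without vehicle 3 h replicate 1 and counted as unchanged. A median counted as unchanged if it moved by less than 0.98 on the log2 scale. The totals thus do not measure how stable the sizes were. For medians, the label unchanged does not always mean that the sign was kept. The median of propyzamide against vehicle at 3 h went from -0.20 to 0.07 without propyzamide 3 h replicate 3. All 84 values of that fit were labelled unchanged. The fit without the deepest library enters these totals under that name and also as the fit without propyzamide 24 h replicate 3. The count of genes called in propyzamide 24 h against unstimulated went from 0 to 2 without the deepest library and to 7 when only named protein-coding genes were also fitted (the added setting), and was 0 to 2 over the fits that left out 1 library each. In propyzamide 24 h against 3 h the 1 call became 0 with RLE, without a filter, with DESeq2 and with limma-trend, 2 with the added setting, and 0 to 1 over the single-library fits. The share of all genes called with the added setting is not given for this comparison, so the 2 cannot be set against a background. DESeq2 called 1 gene in propyzamide 3 h against unstimulated, and the single-library fits 0 to 1, with 1 when propyzamide 3 h replicate 1 was left out. Without a filter the count of genes past the threshold also moved in propyzamide against vehicle at 24 h and in the interaction at 24 h. Both contrasts use the vehicle 24 h values known when the genes were chosen, so these counts are not given and support nothing. The causes were not tested, beyond the fewer libraries or other genes of each fit.

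In propyzamide 24 h against 3 h the median of 0.39 became -0.95 without the deepest library, -0.85 with limma-voom weights and -1.51 with the added setting, and ranged from -0.95 to 0.69 over the single-library fits. Epcam there went from 0.89 to -0.95, -0.56 and -1.39 under the same settings, with a single-library range of -0.95 to 1.22. The Krt19 interaction at 24 h of 1.12 became -0.35 without the deepest library and -0.43 with the added setting, with a range of -0.35 to 3.47. For vehicle 3 h against unstimulated, Krt19 was -0.0921 without a filter and -0.10 with limma-trend (range -0.18 to 0.33), and Cldn7 was -0.24 with limma-trend (range -0.38 to 0.70). Gpx2 in propyzamide 24 h against unstimulated was 0.027 with limma-trend (range -1.42 to 0.32). Olfm4 in propyzamide against vehicle, unstimulated, was -0.0289 with named protein-coding genes only (range -0.20 to 0.38). Depth limits all 24 h values: outside the deepest library the 10 genes together had 16 to 104 counts per library.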
